A study of Mus musculus with 2 samples.

Results

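The glucocorticoid receptor, the enzyme that supplies it with active hormone inside cells, and classical genes that it induces were followed in white adipose tissue of mice with diet-induced obesity. The 10 genes were listed by name, as Nr3c1, Hsd11b1, Zbtb16, Fkbp5, Per1, Tsc22d3, Sgk1, Klf9, Dusp1 and Mt2, out of 19938 genes that had a probe set with a single gene symbol. Each of the 10 had exactly 1 such probe set. Affymetrix Mouse Gene 1.0 ST arrays, which probe a transcript along its length, were hybridised with total RNA of a control mouse (the Oma1_WT array) and of an Oma1-deficient mouse (the Oma1_KO array). Both were 24 weeks old and had spent 20 weeks on a high-fat diet, so every value below is from obese fat. The labels name neither the strain, the sex, the fat depot nor the part of Oma1 that was disrupted, and they do not say whether animals were pooled. The Oma1 product is a stress-activated protease in the inner membrane of mitochondria.

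Glucocorticoids such as corticosterone bind a receptor that waits in the cytoplasm in a complex with heat shock proteins. The bound receptor moves to the nucleus and turns genes on at palindromic DNA elements, or dampens genes of inflammation. In fat the hormone promotes adipocyte differentiation and, in excess, changes how lipid is stored and released. Local supply matters in this tissue, because fat cells can regenerate active hormone from an inactive form.

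The design held 1 array per genotype, so the spread between mice was not measured and no difference below has a test or a replicate check. Values are the authors' deposited intensities on a linear scale. A difference is log2(intensity + 1) in Oma1_KO minus that in Oma1_WT, and a size of 1.5-fold is used only as a description. The background is the 11399 genes with a mean log2 value no lower than that of the median probe set, an intensity of 83. All 10 glucocorticoid genes passed this filter, and 8 of them also passed the upper quartile, an intensity of 326. The SD of this difference between probe sets of the same gene, from 545 genes with exactly 2 probe sets, was 0.17 on the log2 scale. It is called the technical SD below. It measures only disagreement between probe sets on these RNAs, whatever its source, and leaves out any error that the probe sets of a gene share.

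Most of the genes read somewhat lower in the Oma1-deficient array, and Zbtb16 and Hsd11b1 stood at the low end. In all, 9 of the 10 were lower and 1, Sgk1, was higher, where 62.3% of the background genes were lower. The median difference of the 10 was -0.20, beside -0.06 over the background. The 10 genes were chosen with earlier results of these data known, so these contrasts are descriptions only. Only 2 of the 10 were at least 1.5-fold lower, a size reached by 1.74% of the background, and 0 were at least 1.5-fold higher, which 1.23% of the background were. None of the 10 reached 2-fold (background 0.246% lower and 0.272% higher). Beyond the technical SD, 6 were lower and 1 was higher, where 27.5% and 13.5% of the background were. The 6 became 4 after quantile normalisation, beside 19.9% of the background, and 3 after loess, beside 20.5%. After quantile normalisation Hsd11b1 came to lie just under 1.5-fold at -0.58, which left 1 gene past that size, and 8 of the 10 were lower beside 52.2% of the background. That scaling also turned the balance of the background at 1.5-fold, from 140 higher and 198 lower to 169 higher and 147 lower.

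**Figure D1:**
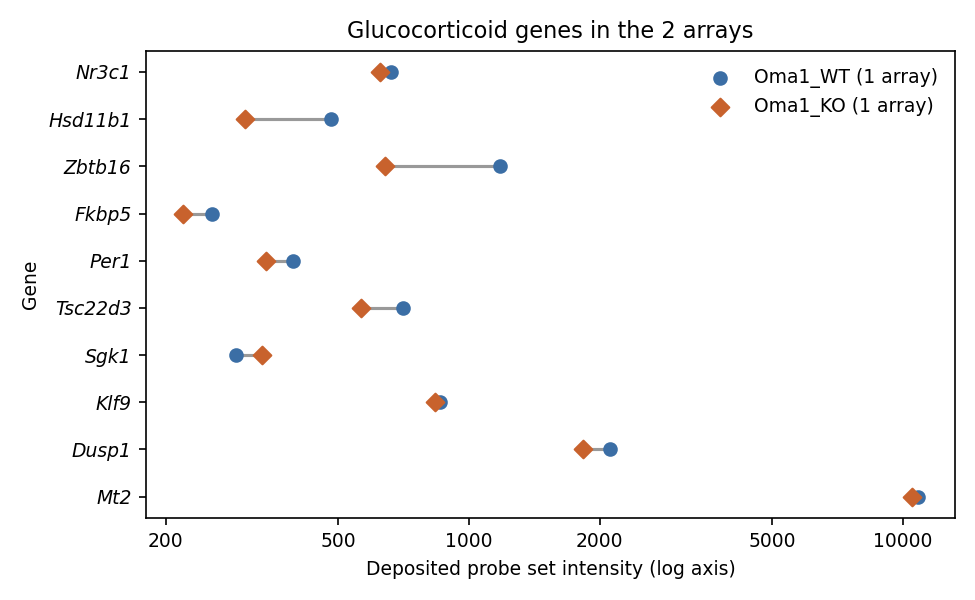
Deposited intensity (log axis) of the 10 glucocorticoid genes in the Oma1_WT array (circles) and the Oma1_KO array (diamonds), 1 array each, joined by a line per gene. The longest lines are those of Zbtb16, 1178 and 639, and Hsd11b1, 480 and 305, and Sgk1 is the gene whose diamond lies to the right.

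The receptor itself differed little. Nr3c1, which encodes the glucocorticoid receptor, read 660 in Oma1_WT and 624 in Oma1_KO, a difference of -0.08 that was within the technical SD. Its closest relative Nr3c2, the mineralocorticoid receptor, which binds the same hormone, read 163 and 137 (-0.25). Of 12 measured chaperones and coregulators of the receptor, 8 were lower and 4 higher, 0 reached 1.5-fold, and the median was -0.03. After quantile normalisation or a loess correction medians this close to 0 can change sign, and that of this list ranged from -0.06 to 0.02. Fkbp4, a co-chaperone that accompanies the receptor to the nucleus, read 282 and 250 (-0.17). The acetyltransferase gene Ep300 read 914 and 798 (-0.20), and the coactivator Ncoa2 read 395 and 434 (0.14). Med1, a Mediator subunit that contacts nuclear receptors, read 849 and 780 (-0.12). These values lay close to the SD between probe sets.

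The enzyme of local hormone supply was lower. Hsd11b1, which encodes the reductase that regenerates corticosterone from its inactive form, read 480 in Oma1_WT and 305 in Oma1_KO. The Oma1_WT value was 1.57-fold the other, a difference of -0.65, and 129 of the 11399 background genes (1.13%) had a still lower one. H6pd, which makes the cofactor for this reaction in the endoplasmic reticulum, read 2504 and 2368 (-0.08). The gene of the opposing enzyme, Hsd11b2, which inactivates the hormone, was dim at 71 on both arrays and below the filter. Of these 3 genes, only Hsd11b1 differed by more than the technical SD.

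Other genes that shape exposure to the hormone were measured in a list of 12, of which 10 had a probe set and 4 passed the filter. Of the 10, 5 were lower, 3 higher and 2 equal, with a median of -0.04. Mc2r, the receptor for corticotropin, which mouse adipocytes carry, read 598 in Oma1_WT and 386 in Oma1_KO (-0.63). It was the only gene of this list above the filter that passed 1.5-fold, and it no longer did after quantile normalisation or loess. Abcb1a, an export pump that accepts steroids, read 275 and 236 (-0.22). Serpina6, the plasma carrier of corticosterone made mainly in liver, read 37 and 65 (0.80), both below the filter intensity, so that the size of this difference is uncertain.

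Among the induced genes, Zbtb16 showed the lowest difference. Zbtb16, a zinc finger transcription factor (PLZF) that responds strongly to glucocorticoids, read 1178 in Oma1_WT and 639 in Oma1_KO. The Oma1_WT value was 1.84-fold the other, a difference of -0.88, and 51 background genes (0.447%) had a lower one. Zbtb32, a relative in the same family of zinc finger factors, read 88 and 104 (0.24). By closeness of the difference over these 2 arrays, the most similar genes above the filter were Tmeff1 with 325 and 176, Dclk3 with 158 and 85, Osbpl1a with 197 and 106, and Gbp5 with 118 and 64. Their differences ran from -0.89 to -0.87. With 2 arrays this likeness says only that the differences were of like size.

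The sensors of receptor activity that many studies use were lower by small amounts. Tsc22d3, which encodes the anti-inflammatory leucine zipper protein GILZ, read 703 and 563 (-0.32), and 9.88% of background genes had a lower difference. Fkbp5, a co-chaperone that lowers the hormone affinity of the receptor and is induced by it in a feedback loop, read 255 and 219 (-0.22). Of the background, 19.9% of genes lay below Fkbp5. Both differences were short of 1.5-fold. That of Fkbp5, at -0.16 after quantile normalisation and after loess, was then within the technical SD, and that of Tsc22d3 stayed beyond it.

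Klf9, a Krüppel-like transcription factor that the receptor induces in many tissues, read 856 and 837 (-0.03). Its sign turned under quantile normalisation (0.02) and loess (0.03). Dusp1, a phosphatase that switches off stress-activated MAP kinases, read 2114 and 1836 (-0.20). Dusp4, another phosphatase of that family and not among the 10 genes, read 345 and 176 (-0.97), the largest absolute difference among 18 measured relatives of the glucocorticoid genes. Of those relatives 11 were lower, 6 higher and 1 equal, with a median of -0.05.

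**Figure D2:**
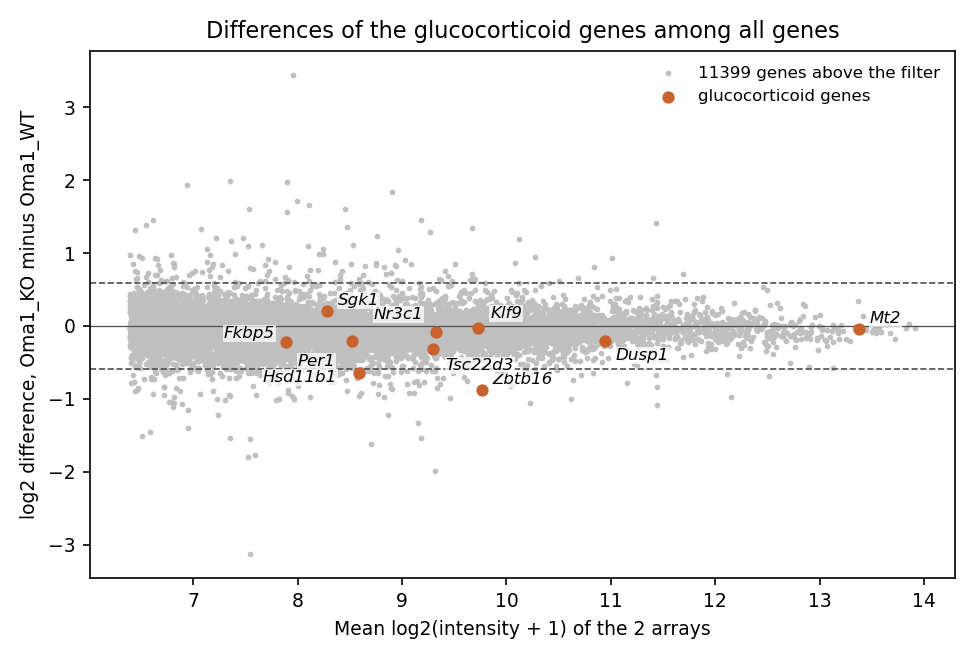
Difference in log2(intensity + 1), Oma1_KO minus Oma1_WT, against the mean of the 2 arrays for the 11399 genes above the filter (grey) and the 10 glucocorticoid genes (orange), with dashed lines at 1.5-fold. Zbtb16 (-0.88) and Hsd11b1 (-0.65) lie under the lower line and the other 8 between the lines.

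Sgk1 went the other way. Sgk1, a kinase that regulates ion channels and transporters and is induced by both corticosteroid receptors, read 290 in Oma1_WT and 334 in Oma1_KO (0.20). Of the background, 10.9% of genes had a higher difference. The difference of Sgk1 was 0.27 after quantile normalisation and after loess, and 0.19 with a pseudocount of 16. Median centring and the probe set choices could not move it, since the arrays had equal medians and Sgk1 had only 1 probe set. Of the related kinases, Sgk3 read 367 and 394 (0.10), within the technical SD. Sgk2, below the filter, read 43 and 35 (-0.29).

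Mt2, a metallothionein that binds zinc and copper and responds to metals as well as to glucocorticoids, was very bright at 10836 and 10498 (-0.05). Its neighbour Mt1 read 4228 and 4074, the same difference of -0.05. Mt3 read 161 and 188 (0.22). Of the zinc-related genes measured beside them, the zinc importer Slc39a10 read 453 and 523 (0.21), and Mtf1, the transcription factor that senses metal, read 288 and 263 (-0.13). Of these 6 genes other than Mt2, 3 were lower and 3 higher, with a median of 0.08.

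Per1, a clock gene that the receptor also induces directly, read 393 and 341 (-0.20). Its paralogs Per2 and Per3 read 224 and 246 (0.13) and 367 and 362 (-0.02). Clock genes were listed by an approximate phase, and their peak times were not measured here. Of 9 genes listed with the phase of Dbp, 7 were higher and 2 lower. Their median was 0.21, or 0.13 where a gene was read from its brightest probe set alone. Dbp, a transcription factor of clock output, read 574 and 838 (0.55), Hlf, its relative, 116 and 156 (0.42), and Nr1d1, the repressor REV-ERB alpha, 2828 and 3576 (0.34). Ciart, another clock repressor, had 2 probe sets that disagreed, with 134 and 126 in the first and 58 and 99 in the second. All 4 measured genes listed with the phase of Arntl were lower, Cry1 within the technical SD, with a median of -0.40. Arntl, the activator BMAL1, read 215 and 140 (-0.62), Nfil3, a repressor, 166 and 114 (-0.54), and Clock, the partner of BMAL1, 1158 and 963 (-0.27), while Cry1 read 98 and 93 (-0.07). The hour at which each mouse was killed is not in the labels, and the part of these clock differences in the values of Per1 and Klf9 was not tested.

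Stretches upstream of the start site are shown for 4 genes. They were picked by hand among the genes with letter matches to known response elements of the hormone, the clock or other signals. They were taken from a table of RefSeq start sites on assembly GRCm38.p6, in which 16 windows of 8 of the 10 genes were used. Windows of Zbtb16 and Nr3c1 were not analysed here. In each window of 250 bases upstream, both strands were searched for the receptor palindrome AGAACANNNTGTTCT and for its single arm AGAACA. The others searched were the cAMP response element TGACGTCA, the E-box CACGTG, the D-box as TTATGCAA or TTATGTAA, and the metal response core as TGCACNC or TGCGCNC. The single arm is part of the palindrome, so their matches overlap. Sequences run 5′ to 3′ on the strand of the gene, and capitals mark the matches named for each.

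Of the 8 genes searched, Sgk1 was the only 1 with the full palindrome, at 189 to 175 bases upstream of the fifth of its 6 start sites. The palindrome was found in 3 of 32851 windows of all genes (0.00913%), and its single arm in 16.1%. Sgk1 and Tsc22d3, with 6 and 3 windows, were the 2 genes with a single arm, whereas the 16.1% is a share of single windows. The stretch lies at chr10:21993675-21993754 on the plus strand, with the palindrome in capitals.
Sgk1: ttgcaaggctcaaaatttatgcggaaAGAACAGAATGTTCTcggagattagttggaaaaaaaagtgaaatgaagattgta

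The stretch of Per1 at chr11:69098779-69098938, plus strand, holds an E-box, the element bound by BMAL1 and CLOCK, and a D-box, bound by DBP, both in capitals. An E-box was found in 6.02% of all windows and this D-box in 0.694%. TTATGTAA, the other form, occurred in 0.819%.
Per1: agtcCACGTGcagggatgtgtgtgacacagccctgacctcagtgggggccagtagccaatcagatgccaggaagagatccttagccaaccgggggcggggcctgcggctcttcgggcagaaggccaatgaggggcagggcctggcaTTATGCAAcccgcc

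Dusp1 at chr17:26508573-26508632, minus strand, holds a cAMP response element, found in 1.55% of all windows, and then an E-box. An E-box was present in a window of 4 of the 8 genes searched, Sgk1 (6 windows), Per1 (2 windows), Dusp1 and Fkbp5 (1 window each). The 6.02% given above is a share of single windows. The share of all genes with an E-box in any window was not counted, so this number of genes has no like background.
Dusp1: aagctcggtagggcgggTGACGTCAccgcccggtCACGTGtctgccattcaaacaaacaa

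Mt2 at chr8:94172483-94172582, plus strand, holds a metal response core on each strand. The core was found as TGCACNC in 10.4% and as TGCGCNC in 12.5% of all windows. Windows of Hsd11b1 and Per1 also held a metal response core, not shown.
Mt2: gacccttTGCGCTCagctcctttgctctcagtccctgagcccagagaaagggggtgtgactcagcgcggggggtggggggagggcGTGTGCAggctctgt

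A match is a run of letters in these windows and not evidence of binding, and elements farther away were not searched. Of the genes whose stretches are shown, Sgk1 was higher (0.20), and Per1 (-0.20), Dusp1 (-0.20) and Mt2 (-0.05) were lower or nearly equal. Sgk1 had 6 of the 16 windows, and thus more sequence in which to find a match. The palindrome was searched only with both arms matched exactly, so lack of a match does not show that a gene lacks a receptor element. Whether the palindrome goes with the direction of a difference was not tested.

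A wider list of 25 genes known to respond to glucocorticoids was measured for 24, the exception being Cdkn1a, whose probe set carries several symbols. These genes were not shifted as a list. Of the 24, 13 were lower and 11 higher, 1 was at least 1.5-fold lower and 0 higher, and the median was -0.03, between -0.05 and 0.03 under the alternatives. Map3k6, a stress kinase, read 292 and 193 (-0.59), and it fell short of 1.5-fold after quantile normalisation, after loess and with a pseudocount of 16. Irs2, an adaptor of the insulin receptor, read 369 and 257 (-0.52). Lcn2, the secreted lipocalin that also marks inflammation, read 1784 and 2527 (0.50), and Bcl6, a transcriptional repressor, 436 and 597 (0.45). The lower readings of Zbtb16, Hsd11b1 and Tsc22d3 were thus not accompanied by a lower median of the wider list.

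Most of the inflammatory genes that the receptor is known to dampen were higher. Of 12 measured, 9 were higher and 3 lower, with a median of 0.31, and 8 passed the filter. In the background, 4172 of 11399 genes were higher. The background holds only genes above the filter, so its share is not a like one for all 12. Below the filter lay Il6 (17 and 19), Ptgs2 (61 and 73) and Mmp3, all higher, and Il1b (56 and 43), which was lower. Icam1 (0.11) and Cxcl10 (-0.15) passed the filter but lay within the technical SD. The monocyte chemokines Ccl2 and Ccl7 read 646 and 884 (0.45) and 588 and 782 (0.41), and Tnf, a cytokine, 106 and 139 (0.39). Nos2, the inducible nitric oxide synthase, went the other way at 139 and 101 (-0.46). Mmp3, a matrix protease, read 51 and 131 (1.34), with a mean below the filter. Of 7 macrophage markers 5 were higher by more than the technical SD, while Mrc1 (0.15) and Cd68, at 5616 and 5626, lay within it. The summed intensity of the 7 was 21471 in Oma1_WT and 24998 in Oma1_KO, and the part of macrophages in the result was not tested.

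Immediate early genes, which respond within minutes to handling or tissue damage as Dusp1, Per1 and Sgk1 also can, had a median of -0.03. Of 12, 7 were lower and 5 higher, and 0 reached 1.5-fold. Fos read 144 and 193 (0.42), Fosb 81 and 109 (0.42) and Atf3 1326 and 1716 (0.37), all transcription factors, while Nr4a1, an orphan nuclear receptor, read 236 and 192 (-0.30). The sign of this median also turned with scaling, within -0.06 to 0.01.

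**Figure D3:**
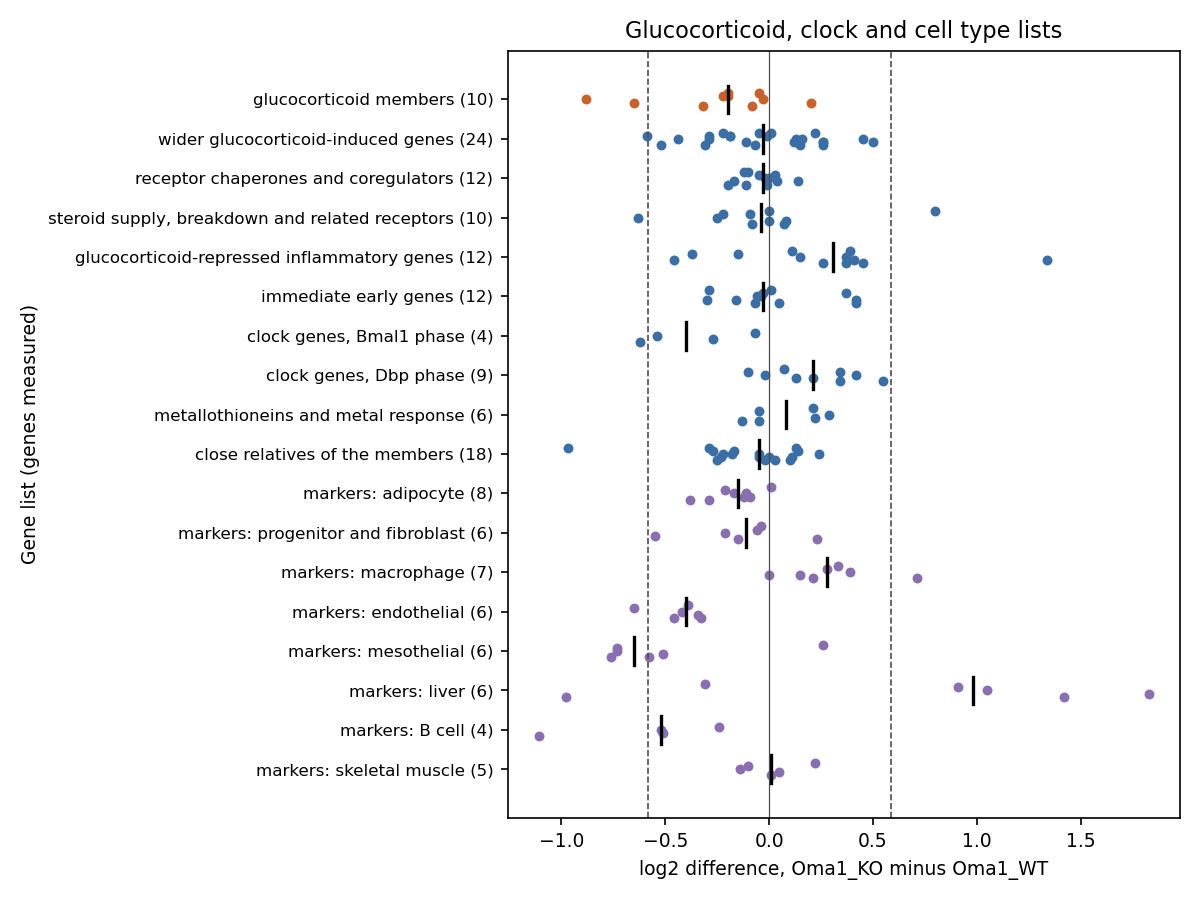
Difference in log2(intensity + 1), Oma1_KO minus Oma1_WT, of every measured gene in each list (points) with the list's median (black bar) and dashed lines at 1.5-fold, where the number in brackets is the number of genes measured. The glucocorticoid genes (orange) have a median of -0.20, the wider induced genes of -0.03, and the endothelial and mesothelial markers of -0.40 and -0.65.

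Markers of cell types were set beside these values, because in bulk tissue fewer cells of a type and less RNA per cell cannot be told apart. Adipocyte markers were bright, as the label of the tissue implies. Of 8, 7 were lower, with a median of -0.15 and a summed intensity of 54480 in Oma1_WT and 48156 in Oma1_KO. Of these, Lep (-0.09), Plin1 (-0.11) and Pparg (-0.12) lay within the technical SD and Fabp4 (-0.17) close to it. In the background 62.3% of genes were lower, a share to set beside each count here. All 6 endothelial markers were lower (median -0.40, summed 7411 and 5670), as were 5 of 6 mesothelial markers (median -0.65, summed 2072 and 1388). Of 6 progenitor and fibroblast markers 5 were lower (median -0.11, summed 15559 and 15038). Of those, Cd34 (-0.06), Dcn (-0.04) and Col1a1 (-0.15) lay within the technical SD, while Pdgfra was higher beyond it (0.23). All 4 B cell markers were lower as well (median -0.52, summed 2739 and 2175). Most of that sum was Ebf1, at 2044 and 1728, and how far Ebf1 reads B cells in fat was not tested. Ms4a1, at 95 and 66, had a mean below the filter. None of the marker values was at 0, and the part of these cell types in the lower readings of Zbtb16 and Hsd11b1 was not tested.

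Hsd11b1 is also abundant in liver, and 4 of 6 liver markers were at least 1.5-fold higher, among them Alb, the gene of albumin, with 1692 and 4523 (1.42), and Apoa1, an apolipoprotein, with 253 and 904 (1.83). Of the other 2, Cyp2e1, which fat also expresses, read 6384 and 3237 (-0.98) and Tat 181 and 146 (-0.31). The 6 summed to 9236 and 10242, and the 5 without Cyp2e1, a sum added after seeing the data, to 2852 and 7005. The part of liver RNA in the Hsd11b1 reading was not tested. Of 5 skeletal muscle markers 3 were higher and 2 lower, with a median of 0.01 and sums of 513 and 525.

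**Figure D4:**
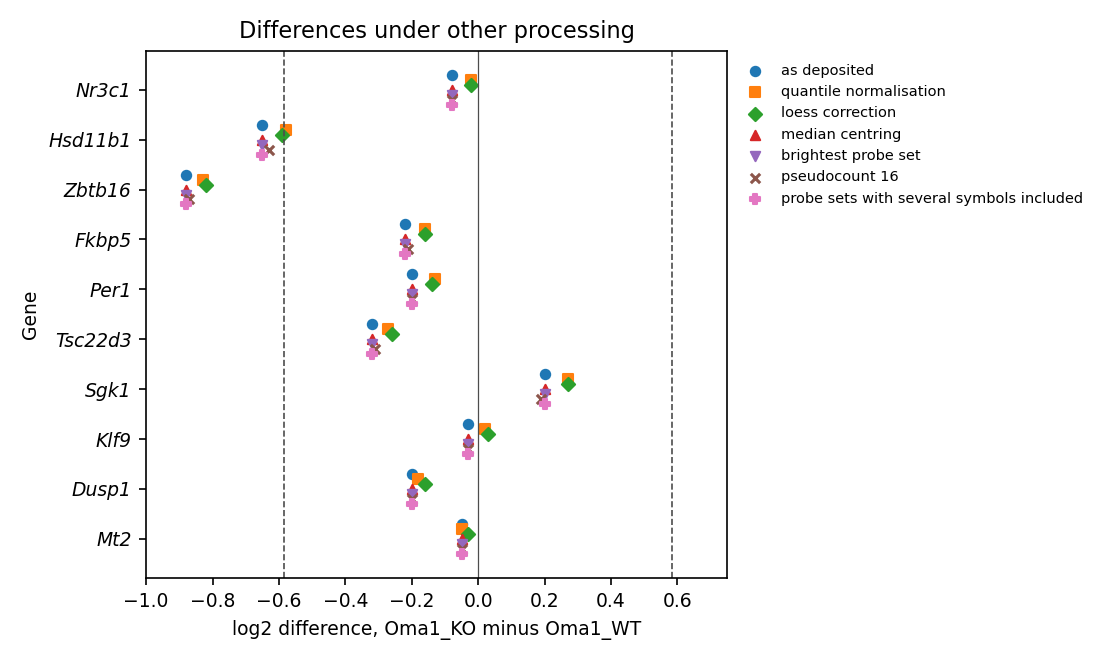
Difference in log2(intensity + 1), Oma1_KO minus Oma1_WT, of the 10 glucocorticoid genes with the values as deposited and under 6 other ways of scaling, pseudocount or probe set choice, with dashed lines at 1.5-fold. Zbtb16 stays between -0.88 and -0.82, Hsd11b1 crosses the line at -0.58 after quantile normalisation, and Klf9 changes sign. Median centring and the probe set choices could not move these genes.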

How the data were processed

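For each array the authors deposited an intensity per probe set, as whole numbers on a linear scale. How these were computed, from background correction to scaling, is not given in the sources used here. Both arrays had a median of 83 over 35512 probe sets, and upper quartiles of 335 and 318. GEO's platform annotation gave a single symbol to 21789 probe sets, several to 1621 and none to 12102; gene values use the first kind only. All 10 glucocorticoid genes matched the RefSeq gene table by identifier.

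Values were put on a log2 scale with a pseudocount of 1, probe sets of a gene were averaged, and the difference was taken as Oma1_KO minus Oma1_WT. The dimmest genes are understated on this scale. No test was possible with 1 array per group. The procedure was run on simulated data, made from the Oma1_WT values with known folds and noise of the size of the SD between probe sets. That checks only that the calculation returns the folds put in. It holds no spread between mice and no scaling shift.

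The genes and lists were chosen with earlier results of these data known. Named are the 10 genes, up to 4 genes above the filter with the largest absolute difference from each other list (of the relatives, Zbtb32, Hsd11b2 and Mt1), any gene of those lists past 1.5-fold, and the 4 nearest to Zbtb16. Per2, Per3, Sgk2, Sgk3, Il6, Ptgs2, Il1b, Icam1, Cxcl10 and the marker genes were named in addition, after their values were seen. Alternatives were quantile normalisation, loess (span 0.4), median centring, the brightest probe set, a pseudocount of 16, probe sets with several symbols, and other filters. Python 3.11.15, numpy 2.4.6, pandas 2.3.3, statsmodels 0.14.6 and matplotlib 3.10.9 were used.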

Additional observations from a re-analysis of the deposited data

How the results depend on the processing

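No paired analysis was possible because each group held 1 array, and for the same reason no array could be left out. Median centring left every value as it was, since the arrays have equal medians, so it tested nothing. The probe set choices could not move the 10 glucocorticoid genes either, since each had only 1 probe set. The count of glucocorticoid genes at least 1.5-fold lower, 2 with the values as deposited, was 1 after quantile normalisation and 2 under the other alternatives. Among the 11399 background genes 140 were higher and 198 lower by that size. The split was 169 and 147 after quantile normalisation and 165 and 160 after loess, and the larger side thus changed with quantile normalisation and with loess. With the filter at the upper quartile the counts were 52 and 81, over 5786 genes, and with no filter they were 219 and 275. The count of glucocorticoid genes lower by more than the technical SD, 6 as deposited, was 4 after quantile normalisation and 3 after loess, a comparison added after seeing the data. Of the 12 genes past 1.5-fold that the rule names, 8 were still past it after quantile normalisation, 9 after loess and 10 with a pseudocount of 16; Hsd11b1, Map3k6, Mc2r and Arntl were lost after the first, and the others lost were among these. The 12 include the 4 genes nearest to Zbtb16 and, with means below the filter, Serpina6 and Mmp3. Those 4 were picked from these data for a difference like that of Zbtb16, so they raise the numbers still past 1.5-fold. The marker genes were not followed in this way. Gene list medians used all measured genes, so leaving out the filter could not change them. No detection call was used, so low intensities such as those of Serpina6 and Hsd11b2, and of Mmp3 in Oma1_WT, cannot be told from background.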
